A study of Mus musculus with 6 samples.

Results

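Matrix metalloproteinases (MMPs) and their tissue inhibitors (TIMPs) were followed in RNA-seq of BV2 cells, an immortalized mouse microglial line, with and without knockdown of TonEBP, the transcription factor encoded by Nfat5. The set was a list of named genes, 7 metalloproteinases (Mmp2, Mmp3, Mmp9, Mmp10, Mmp13, Mmp14 and Mmp19) and 3 inhibitors (Timp1, Timp2 and Timp3), and all 10 were found among the 21899 genes of the count table. The sh-NC group (n = 3 libraries) received a lentivirus with a scrambled shRNA, and the sh-TonEBP group (n = 3) a lentivirus with an shRNA against Nfat5. Both groups were selected with puromycin and neither received a further treatment according to the labels. The knockdown rested on a single shRNA in a single cell line. Nothing in the labels or methods tells if the replicates were grown as separate cultures, and p-values here reflect the library-to-library spread alone, possibly a technical one.

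MMPs are zinc-dependent proteases that cleave collagens, laminins, fibronectin and many cell surface proteins. Most are secreted as inactive proenzymes and need a further protease to remove the propeptide, whereas Mmp14 is anchored in the plasma membrane. TIMPs bind the active site of MMPs, and Timp2 also forms a complex with Mmp14 through which pro-Mmp2 is activated. In microglia, MMPs are known for their part in blood-brain barrier breakdown and in the inflammatory response to brain injury.

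Several of the genes lie side by side. RefSeq places 10 MMP genes without another protein-coding gene between them on chromosome 9, in the order Mmp13, Mmp12, Mmp1b, Mmp3, Mmp1a, Mmp10, Mmp8, Mmp27, Mmp20 and Mmp7. The promoters of the 5 cluster genes that had enough counts to be tested are shown because they include the largest decreases of the family and also Mmp3, which did not pass the test, and those of Mmp14 and Timp2 because these were the most abundant enzyme and inhibitor. Each line is the 120 bases before the transcription start in RefSeq (GRCm38.p6), 5′ to 3′ in the direction of the gene. Capitals mark the AP-1 site, searched as TGAGTCA on both strands, and the TATA box, searched as TATAAA on the strand of the gene alone.
Mmp10: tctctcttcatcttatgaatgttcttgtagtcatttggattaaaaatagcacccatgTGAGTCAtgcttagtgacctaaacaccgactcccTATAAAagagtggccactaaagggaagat
Mmp1b: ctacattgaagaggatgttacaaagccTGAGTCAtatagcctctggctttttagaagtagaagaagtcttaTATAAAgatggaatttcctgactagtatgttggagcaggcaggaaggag
Mmp1a: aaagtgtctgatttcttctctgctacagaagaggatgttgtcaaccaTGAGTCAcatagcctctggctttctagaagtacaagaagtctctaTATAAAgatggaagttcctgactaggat
Mmp13: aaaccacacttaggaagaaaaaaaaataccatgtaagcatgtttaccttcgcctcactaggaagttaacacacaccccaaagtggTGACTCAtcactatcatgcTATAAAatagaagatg
Mmp3: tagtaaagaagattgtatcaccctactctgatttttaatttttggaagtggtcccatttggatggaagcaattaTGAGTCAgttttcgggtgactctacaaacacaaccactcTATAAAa
Mmp14: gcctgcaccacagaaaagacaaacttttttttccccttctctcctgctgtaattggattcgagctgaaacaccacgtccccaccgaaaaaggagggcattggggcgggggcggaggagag
Timp2: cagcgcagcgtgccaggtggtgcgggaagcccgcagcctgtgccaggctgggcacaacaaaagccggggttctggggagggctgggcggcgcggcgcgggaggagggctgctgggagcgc
The windows lie at chr9:7502222-7502341 (Mmp10, plus strand), chr9:7388027-7388146 (Mmp1b, minus strand), chr9:7464021-7464140 (Mmp1a, plus strand), chr9:7272394-7272513 (Mmp13, plus strand), chr9:7445702-7445821 (Mmp3, plus strand), chr14:54431478-54431597 (Mmp14, plus strand) and chr11:118355412-118355531 (Timp2, minus strand).

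In the 250 bases before the start, all 5 tested cluster genes held both motifs. Of the family genes elsewhere, 7 were searched (Mmp11, Mmp14, Mmp23, Mmp28, Timp1, Timp2 and Timp3), and none held either. Mmp2, Mmp9 and Mmp19 had no promoter entry, and the other family genes elsewhere, the tested Mmp25 among them, were not searched. Over the whole cluster, 7 of 10 genes held an AP-1 site and 7 of 10 a TATA box. Among all 32851 mouse promoters of the same length, 4.46% held the AP-1 letters and 7.59% the TATA letters. The first base of the AP-1 site lay 63 bases before the start in Mmp10, 93 in Mmp1b, 73 in Mmp1a, 35 in Mmp13 and 46 in Mmp3. The GC content of the 250 bases was 37.2% to 42.0% in the 5 cluster genes and 54.4% to 68.0% in the searched promoters elsewhere. The median over all promoters was 52.4%. The letters TGGAAA, the core shared by elements of NFAT proteins including TonEBP, were found on either strand in Mmp3 and Mmp13 among the 5, and in 18.6% of all promoters. Mmp3 thus carried the same AP-1 and TATA letters as the 4 neighbours. These matches are descriptions of the letters, and binding was not measured.

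The 6 libraries held 13621188 to 16140042 counts, and 0 counts in a library allowed a level of up to 0.188 to 0.216 CPM (counts scaled to library size, normalized by the TMM method; this limit of 3 counts covers counting error only). Nfat5 itself had 9641, 11640 and 9652 counts in sh-NC and 3894, 4631 and 5257 in sh-TonEBP, a log2 fold change of -1.14 (SE 0.16, adjusted p = 0.00016), so it was lower in every library labelled sh-TonEBP. All adjusted p-values in the text are from edgeR's quasi-likelihood test with Benjamini-Hochberg adjustment over the 11943 genes that passed a filter on low counts, and a gene was called at an adjusted p under 0.05. The labelled cell type was not reflected in its defining markers. Of 14 myeloid and microglial markers, 9 stayed under 1 CPM in every library, and Spi1, Ptprc, Itgam, Aif1, Trem2 and Tyrobp had at most 3 counts in any library.

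Of the 9 genes tested, Mmp10, Mmp13 and Mmp19 fell, Mmp14 and Timp2 rose 1.92-fold and 1.98-fold, Mmp9 and Timp1 were called higher just inside the threshold, and Mmp3 and Mmp2 did not pass the test. Timp3 had 1 count in 1 library of each group and was under the filter. The 4 calls in the higher direction compared with 26.3% of all tested genes called higher, and the 3 in the lower direction with 26.2% called lower. With either direction, 7 of 9 were called, beside 52.5% of all tested genes, and the groups did not overlap in 7 of 9, beside 62.7%. At the cutoffs the study used for its own lists (a log2 fold change over 1 or under -1 with an unadjusted p under 0.05), Mmp10 and Mmp13 passed, 2 of 9, beside 14.9% of all genes. The median log2 fold change of the 9 was 0.32, and that of all tested genes was 0.0007.

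**Figure D1:**
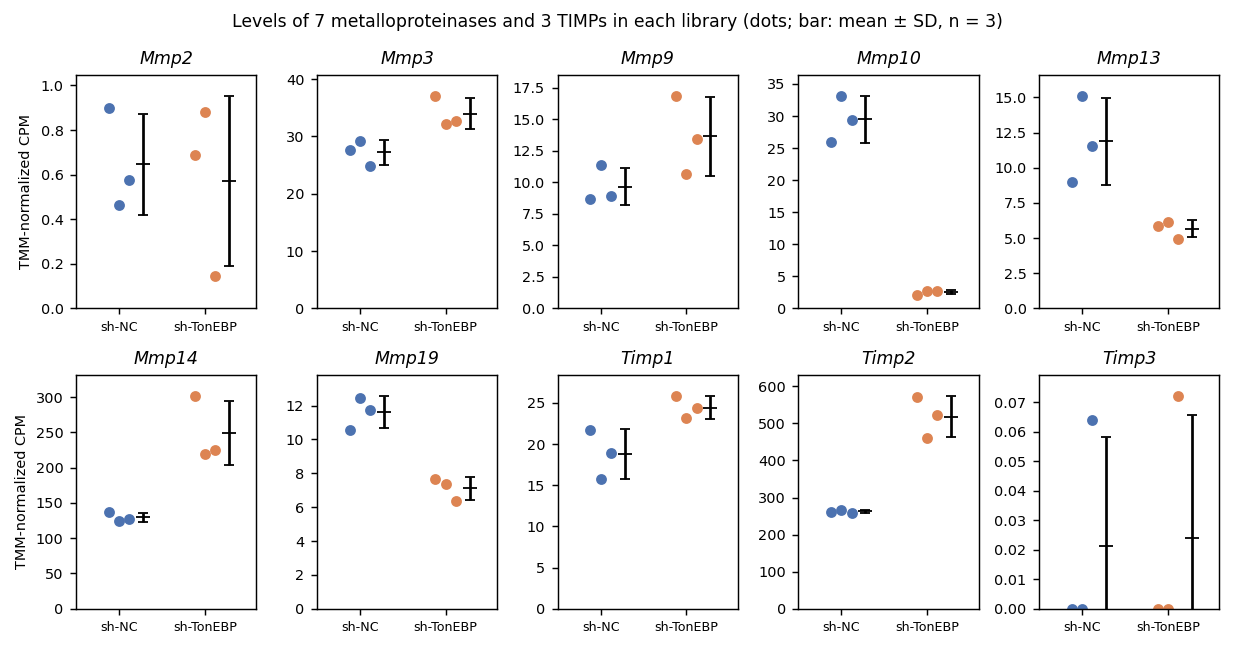
Levels of the 10 genes in TMM-normalized CPM (y axis, from 0, a different scale in each panel) in the 3 sh-NC and 3 sh-TonEBP libraries. Dots are libraries and bars are the mean ± SD, cut at 0. Mmp10 went from 29.5 to 2.52 CPM and Timp2 from 262.3 to 518.2 CPM, while the groups overlapped for Mmp2, Mmp9 and the untested Timp3.

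Among the secreted enzymes of the cluster, Mmp10 moved most. Mmp10 (stromelysin-2) cleaves proteoglycans, laminin and fibronectin and activates other proMMPs. It was at 25.9, 33.2 and 29.4 CPM in sh-NC (404, 500 and 459 counts) and at 2.13, 2.77 and 2.66 CPM in sh-TonEBP (34, 44 and 37 counts). Every sh-TonEBP library lay far under every sh-NC library, with little spread on either side. The mean was 29.5 ± 3.62 CPM in sh-NC and 2.52 ± 0.34 CPM in sh-TonEBP (SD, n = 3 each), 11.7-fold lower. The log2 fold change was -3.55 (SE 0.18, 95% interval -3.94 to -3.15, adjusted p = 2.6e-07). Only 16 of the 11943 tested genes had a lower log2 fold change, and 0.31% were under -3.

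Mmp13 (collagenase-3), the main interstitial collagenase of rodents, was at 8.98, 15.1 and 11.6 CPM in sh-NC and at 5.89, 6.16 and 4.97 CPM in sh-TonEBP. The groups did not overlap, and the sh-NC libraries differed more among themselves than the sh-TonEBP libraries. Its log2 fold change was -1.06 (SE 0.21, 95% interval -1.53 to -0.60, adjusted p = 0.0014). With the trends of the log2 fold change on transcript length and GC content removed it was -0.78, still called but no longer past the study's fold cutoff, as also without the second sh-NC library (-0.85) or the third sh-TonEBP library (-0.97).

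Mmp3 (stromelysin-1), which shares much of its substrate range with Mmp10, took another course. It was at 27.6, 29.3 and 24.9 CPM in sh-NC and at 37.1, 32.2 and 32.7 CPM in sh-TonEBP. All 3 sh-TonEBP libraries were above all 3 sh-NC libraries, but the call was missed with a log2 fold change of 0.32 (SE 0.13, 95% interval 0.04 to 0.60, adjusted p = 0.054). Without the second sh-NC library it was 0.38 with an adjusted p of 0.049. The closeness of the pair limits these values. Of the 50-base stretches of the longest Mmp10 transcript, 140 of 1673 (8.37%) also occur in Mmp3, and the counting of reads that match both is not given in the sources used here.

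In sh-NC the stromelysin transcripts were near parity, and in sh-TonEBP they were not. The ratio of Mmp10 to Mmp3 counts per kilobase of transcript was 0.98, 1.19 and 1.23 in sh-NC and 0.060, 0.090 and 0.085 in sh-TonEBP, a difference in mean log2 ratio of -3.87. The ratio of Mmp13 to Mmp3 went from 0.29 ± 0.067 to 0.113 ± 0.014 (SD, n = 3 each). These ratios to Mmp3 were chosen after the values were seen and are given as descriptions.

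The rest of the cluster was examined in the 17 other MMP and TIMP genes of the mouse, of which 6 were tested, 1 was called higher, 2 lower and 3 not. Mmp1b, a rodent relative of the human interstitial collagenase MMP1, had 184, 209 and 213 counts in sh-NC and 20, 35 and 28 in sh-TonEBP, a log2 fold change of -2.84 (SE 0.23, adjusted p = 4.3e-06). Mmp1a, its near copy, had 17, 11 and 16 counts in sh-NC and 0, 7 and 1 in sh-TonEBP (log2 fold change -2.39, SE 0.72, adjusted p = 0.014), and it passed the filter through its sh-NC libraries alone. Its log2 fold change was -4.51 without the second sh-TonEBP library and -1.80 without the first. The pair shares 8.26% of the 50-base stretches of Mmp1a, so reads may be split between them. Mmp12 had 4, 10 and 17 counts against 9, 4 and 3 and was under the filter, as were Mmp8, Mmp27, Mmp20 and Mmp7, with at most 2 counts in any library. Leaving aside Mmp1a, whose level in sh-NC alone brought it into the test, 3 of the other 4 cluster genes tested were called lower, beside 26.2% of all tested genes, and Mmp3, which lies between Mmp1b and Mmp1a, was not.

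**Figure D2:**
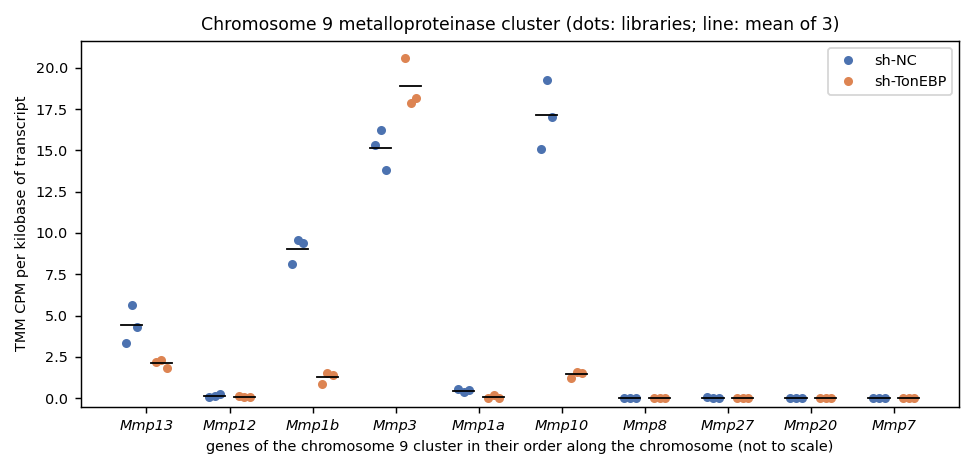
Levels of the chromosome 9 cluster in TMM CPM per kilobase of the longest transcript (y axis), with the genes in chromosomal order (x axis, not to scale). Dots are libraries and lines are means of 3. Mmp10, Mmp1b and Mmp13 were lower in every sh-TonEBP library, whereas Mmp3, between Mmp1b and Mmp1a, was at 15.1 CPM per kilobase in sh-NC and 18.9 in sh-TonEBP.

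Outside the cluster, Mmp14 (MT1-MMP) is the membrane-bound collagenase that clears pericellular matrix and activates pro-Mmp2 and pro-Mmp13. It was at 137.0, 124.5 and 127.9 CPM in sh-NC and at 301.4, 219.3 and 225.7 CPM in sh-TonEBP. The groups did not overlap, and the first sh-TonEBP library was the highest by a wide margin. The mean went from 129.8 ± 6.48 to 248.8 ± 45.7 CPM (SD, n = 3 each), with a log2 fold change of 0.94 (SE 0.13, 95% interval 0.65 to 1.23, adjusted p = 0.00015). Leaving out that library gave 0.78, which kept the call.

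Mmp19, which cleaves basement membrane components, fell. It was at 10.6, 12.5 and 11.8 CPM in sh-NC and at 7.65, 7.36 and 6.34 CPM in sh-TonEBP, with no overlap. The log2 fold change was -0.70 (SE 0.17, 95% interval -1.07 to -0.34, adjusted p = 0.0043).

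The gelatinases Mmp2 and Mmp9 degrade type IV collagen and denatured collagens. Mmp9 was at 8.66, 11.3 and 8.95 CPM in sh-NC and at 16.9, 10.6 and 13.5 CPM in sh-TonEBP. The second sh-TonEBP library lay under the second sh-NC library, so the groups overlapped. Its log2 fold change was 0.50 (SE 0.20, 95% interval 0.07 to 0.93, adjusted p = 0.049), and the call was lost in 9 of 13 alternatives, including DESeq2 (adjusted p = 0.056) and the fit without the first sh-TonEBP library (0.32, adjusted p = 0.19). Mmp2 had 14, 7 and 9 counts in sh-NC and 11, 14 and 2 in sh-TonEBP, that is, under 1 CPM in every library. Its log2 fold change was -0.15 with a 95% interval of -1.38 to 1.09 (adjusted p = 0.84), an interval that leaves room for a change of either sign.

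Of the inhibitors, Timp2 was the most abundant. It was at 261.8, 267.3 and 257.8 CPM in sh-NC and at 571.0, 460.7 and 522.9 CPM in sh-TonEBP. The sh-NC libraries were nearly identical and every sh-TonEBP library was far above them. The mean went from 262.3 ± 4.76 to 518.2 ± 55.3 CPM (SD, n = 3 each), with a log2 fold change of 0.98 (SE 0.12, 95% interval 0.73 to 1.23, adjusted p = 4.3e-05).

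Timp1, the inducible inhibitor that binds pro-Mmp9, was at 21.7, 15.7 and 18.9 CPM in sh-NC and at 25.8, 23.1 and 24.3 CPM in sh-TonEBP. The groups did not overlap, but the gap between them was small beside the spread within sh-NC. The log2 fold change was 0.38 (SE 0.15, 95% interval 0.06 to 0.70, adjusted p = 0.049). The call was lost in 9 of 13 alternatives, and with the length and GC trends removed the log2 fold change was -0.15 (adjusted p = 0.45), so the direction of Timp1, whose transcript is the shortest of the 10, depends on that correction. Timp3, which is held in the matrix and also inhibits ADAM17, had 0, 0 and 1 counts in sh-NC and 0, 0 and 1 in sh-TonEBP, at or under the limit that a count of 0 allows. Timp4 had 2 counts in 1 library and 0 in the others.

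**Figure D3:**
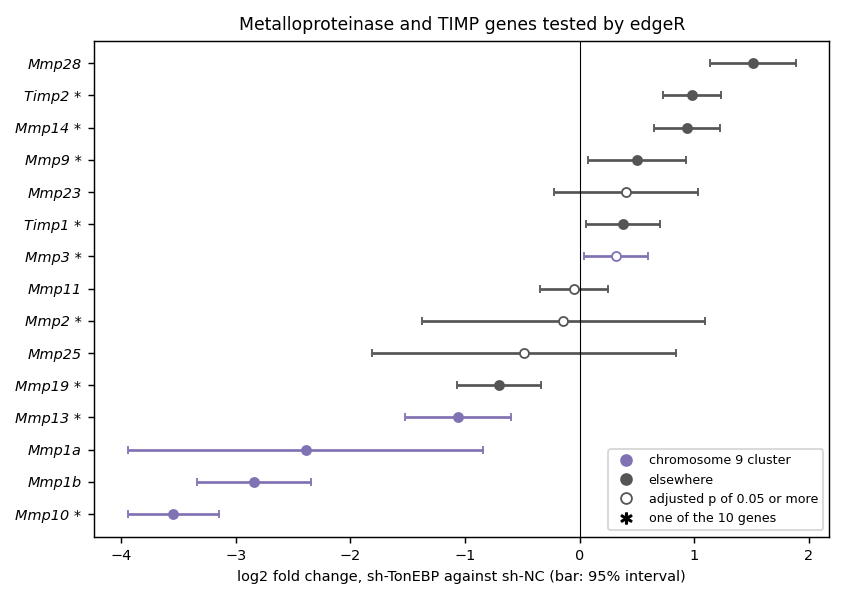
Log2 fold changes of sh-TonEBP against sh-NC (x axis) for the 15 MMP and TIMP genes tested, with 95% intervals. Filled circles passed an adjusted p of 0.05 in edgeR, open circles did not, purple marks the chromosome 9 cluster and asterisks mark the 10 listed genes. The genes called lower in the cluster lie between -3.55 and -1.06, and the genes called higher all lie outside it, with Timp1 taking the sign -0.15 once length and GC trends are removed.

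Of the 10 tested family genes that are not in the cluster, 5 were called higher and 1, Mmp19, was called lower, beside 26.3% and 26.2% of all tested genes. The 5 include Mmp9 and Timp1, whose calls were each lost in 9 of 13 alternatives. The largest increase was that of Mmp28 (epilysin), a secreted enzyme of epithelia and macrophages. It had 160, 138 and 165 counts in sh-NC and 552, 359 and 392 in sh-TonEBP, a log2 fold change of 1.51 (SE 0.17, adjusted p = 3.7e-05). Mmp11 (stromelysin-3), the next most abundant enzyme after Mmp14 in sh-NC, had 695, 801 and 859 counts against 909, 754 and 595, with overlapping groups and a log2 fold change of -0.05 (SE 0.14, adjusted p = 0.77). Mmp23 and Mmp25 did not pass the test either, with log2 fold changes of 0.40 and -0.49. The remaining 11 genes were under the filter, and Mmp7, Mmp16 and Mmp20 had 0 counts in every library.

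Levels of different genes were compared per kilobase of the longest transcript (GENCODE M21). Summed over the 23 MMP genes, the enzymes came to 115.3, 124.8 and 119.9 CPM per kilobase in sh-NC and 163.3, 126.0 and 128.4 in sh-TonEBP. The summed level therefore did not overlap between the groups, but the second sh-TonEBP library exceeded the highest sh-NC library by a small margin. Its make-up differed more than its size. Mmp14 was the most abundant MMP transcript in all 6 libraries and went from 33.5% ± 3.0 to 55.0% ± 1.7 of the summed level (SD, n = 3 each). Mmp10 went from 14.2% ± 1.2 to 1.08% ± 0.28, Mmp1b from 7.52% ± 0.41 to 0.94% ± 0.36, while Mmp3 was between 11.5% and 13.3% in sh-NC and between 12.6% and 14.2% in sh-TonEBP. The whole cluster made up 36.9%, 41.1% and 37.8% in sh-NC and 15.3%, 18.7% and 17.9% in sh-TonEBP.

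In sh-NC the order of the enzymes was thus Mmp14, Mmp11, Mmp10, Mmp3 and Mmp1b, where Mmp10 (17.1 ± 2.10 CPM per kilobase) and Mmp3 (15.1 ± 1.23) did not differ beyond their spread. In sh-TonEBP it was Mmp14, Mmp11, Mmp3 and Mmp28, where Mmp11 (21.5 ± 3.15) and Mmp3 (18.9 ± 1.5) did not differ beyond theirs. The 4 TIMPs came to 95.2, 89.9 and 90.9 CPM per kilobase in sh-NC and 183.2, 150.4 and 168.6 in sh-TonEBP. Timp2 made up 76.9% ± 3.1 of that in sh-NC and 83.4% ± 0.75 in sh-TonEBP, and Timp1 nearly all of the rest.

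**Figure D4:**
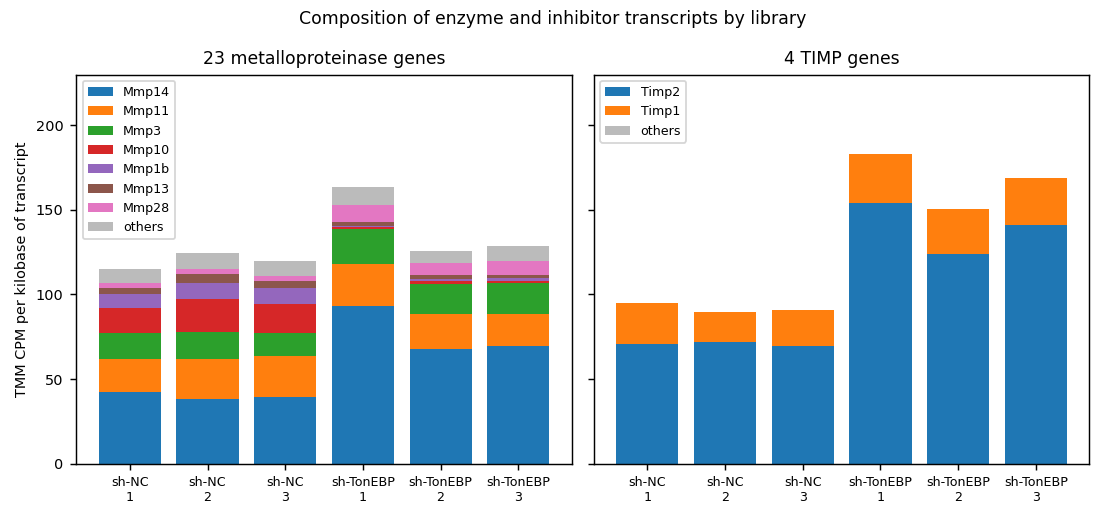
Summed levels of the 23 MMP genes (left) and the 4 TIMP genes (right) in each library, in TMM CPM per kilobase of transcript, with the largest contributors in colour. Mmp14 took 33.5% of the enzyme total in sh-NC and 55.0% in sh-TonEBP, Mmp10 shrank to 1.08%, and the TIMP total went from 92.0 to 167.4.

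Ratios of enzyme to inhibitor within a library were compared for 4 pairs that are known to interact. The ratio of Mmp14 to Timp2 per kilobase was 0.60, 0.53 and 0.57 in sh-NC and 0.60, 0.55 and 0.49 in sh-TonEBP. The groups overlapped, with a difference in mean log2 ratio of -0.05 against an SD of 0.12 (p = 0.7 in a two-sided exact permutation test, adjusted p = 1.0 over the 4 ratios). For 3 libraries against 3 this test cannot go below 0.1. The ratio of Mmp9 to Timp1 was 0.148 ± 0.047 in sh-NC and 0.154 ± 0.027 in sh-TonEBP (exact p = 0.8), and that of Mmp3 to Timp1 was 0.73 ± 0.16 and 0.68 ± 0.023 (exact p = 1.0). The ratio of Mmp2 to Timp2 was 0.0030 ± 0.0011 and 0.0014 ± 0.00099 (exact p = 0.2), and it rested on 2 to 14 counts of Mmp2 per library.

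**Figure D5:**
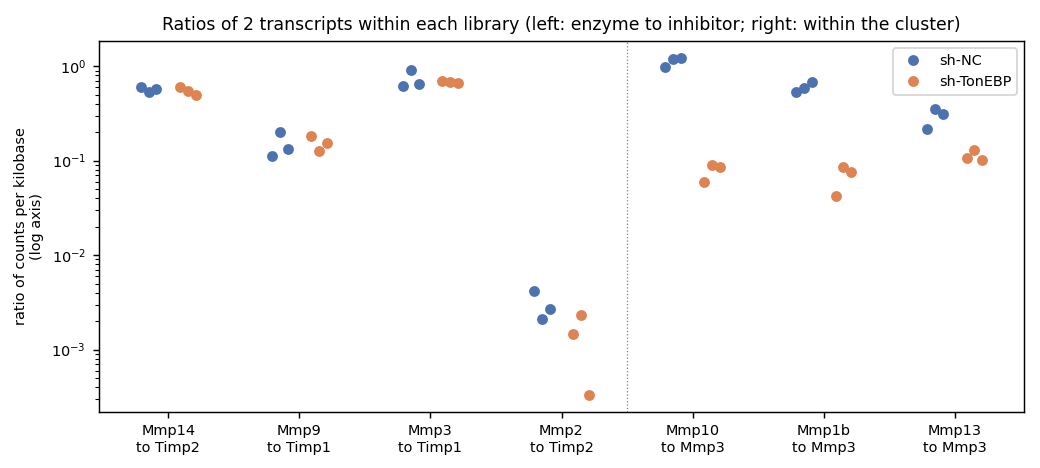
Ratios of 2 transcripts within each library, as counts per kilobase, on a log axis. The 4 enzyme to inhibitor pairs on the left overlapped between sh-NC and sh-TonEBP, and the 3 ratios to Mmp3 on the right, chosen after the values were seen, did not, with Mmp10 to Mmp3 going from a mean of 1.13 to 0.078.

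The genes whose levels ran most like those of the extreme members were taken from the tested genes with a mean of at least 5 CPM. Over the 6 libraries, Mmp10 was followed most closely by Cth (cystathionine gamma-lyase, Pearson r = 0.9995 of log2 CPM), Cdk17 (0.9991) and Metap1d (0.999), with log2 fold changes of -2.49, -1.05 and -1.45. Timp2 was followed by Baiap2 (0.9994), Tmem127 (0.9991) and Slc25a35 (0.9982), with log2 fold changes of 1.0, 0.83 and 1.23. With 2 groups in 6 libraries, any gene that differed between the groups and varied little within them reaches such values, so these are descriptions.

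The genes around the MMPs were counted by role, and each count stands beside the 26.3% of all tested genes called higher and the 26.2% called lower. Of 9 tested genes for cofactors and non-TIMP inhibitors, 1 was called higher, 2 lower and 6 not, with a median log2 fold change of -0.18. Cd44, the hyaluronan receptor that docks Mmp9 and Mmp14 at the cell surface, fell by 1.52 on the log2 scale (adjusted p = 2.0e-06), and Itgb3, an integrin subunit, by 0.998 (adjusted p = 0.0019). Pcolce, an enhancer of procollagen processing, rose by 1.35 on the same scale (adjusted p = 6.0e-06). Reck, a membrane-anchored MMP inhibitor, had 13, 15 and 15 counts against 8, 11 and 6 and did not pass the test (-0.76, adjusted p = 0.14).

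Plasminogen activation, which feeds the proteolytic activation of proMMPs, was represented by 9 tested genes, of which 3 were called lower and none higher (median -0.24). These 9 mix activators, receptors and proteases with an inhibitor, so the count gives no direction for activation. Plat (tissue plasminogen activator) had a log2 fold change of -0.62 (adjusted p = 0.0063) and the lysosomal protease Ctsl one of -0.39 (adjusted p = 0.019). S100a10, a plasminogen receptor subunit, did not pass (0.26, adjusted p = 0.10).

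Of the proprotein convertases, some of which cleave pro-Mmp14 and pro-Mmp11 inside the cell, 3 of 4 tested were called higher (median 0.34). Pcsk7 had a log2 fold change of 0.89 (adjusted p = 0.00076), Mbtps1 of 0.31 (adjusted p = 0.034) and Furin of 0.32 (adjusted p = 0.048), while Pcsk6 did not pass (0.37, adjusted p = 0.089).

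The ADAM and ADAMTS families, related metalloproteinases, were counted next. Of 9 tested ADAM and iRhom genes, 2 were called higher, 3 lower and 4 not (median -0.27). Adam22, a neuronal member that lacks protease activity, had a log2 fold change of -1.82 (adjusted p = 7.0e-05), Adam8, a leukocyte sheddase, of -1.48 (adjusted p = 4.9e-05), Adam9 of -0.70 (adjusted p = 0.00028) and Rhbdf1, a trafficking factor of ADAM17, of 0.41 (adjusted p = 0.0088). Of 8 tested ADAMTS genes, 6 were called lower and 1 higher, with a median of -0.83. Adamts6 fell from 19.0 ± 1.69 to 5.78 ± 1.67 CPM (SD, n = 3 each, log2 fold change -1.72, adjusted p = 4.8e-05). Adamts7, Adamts10 and the procollagen N-proteinase Adamts14 had log2 fold changes of -1.19, -0.94 and -0.93. The only one called higher, Adamts17 (adjusted p = 0.0052), had 4, 22 and 9 counts in sh-NC and 51, 35 and 40 in sh-TonEBP and passed the filter through sh-TonEBP alone. It was named after its values were seen.

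Substrates of the MMPs were also examined. Of 22 tested matrix genes, 9 were called higher, 5 lower and 8 not (median 0.23). Col3a1, a substrate of the interstitial collagenases, was at 334.9, 347.4 and 342.8 CPM in sh-NC and at 1481, 1312 and 1322 CPM in sh-TonEBP, a log2 fold change of 2.01 (SE 0.12, adjusted p = 7.2e-07). Col5a2 (log2 fold change 1.36) and Sparc (1.31), which codes for a collagen-binding glycoprotein, also rose. Dcn, the small proteoglycan decorin, was called higher with 1, 4 and 1 counts in sh-NC and 41, 43 and 47 in sh-TonEBP. It passed the filter through sh-TonEBP alone, and no fold is given because its sh-NC level is near the limit of a count of 0. Eln, also among the 9 and named after its values were seen, likewise passed through sh-TonEBP alone. It had 6, 0 and 1 counts in sh-NC and 29, 19 and 17 in sh-TonEBP. Col1a1, also among the 9 and named after its values were seen, passed through sh-TonEBP alone as well. Its counts were 13, 7 and 15 in sh-NC and 59, 36 and 27 in sh-TonEBP. Among those called lower were Lama5 and Lamb1, subunits of laminins, and the collagens Col7a1 and Col2a1. These 4 were named after their values were seen. Col2a1 had 62, 57 and 74 counts in sh-NC and 10, 16 and 24 in sh-TonEBP, and it passed the filter through sh-NC alone.

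Of 15 tested factors of the AP-1, ETS and RUNX families, which are known to act on the promoters of the cluster genes in other cells, 11 were called lower, 1 higher and 3 not, with a median log2 fold change of -0.71. Runx2, which is known to act on Mmp13 in bone, was at 84.0, 96.4 and 84.5 CPM in sh-NC and at 30.8, 29.8 and 31.9 CPM in sh-TonEBP, a log2 fold change of -1.52 (SE 0.12, adjusted p = 2.8e-06). Runx1, Etv4 and Ets2 had log2 fold changes of -0.72, -0.74 and -0.71. Of the AP-1 subunits, named after their values were seen, Jund alone was called higher, with a log2 fold change of 1.54 (adjusted p = 0.0025). Jun (-0.53, adjusted p = 0.012), Fosb (-0.72, adjusted p = 0.026) and Fosl2 (-0.74, adjusted p = 0.0064) were called lower. So were Fos (-1.25, adjusted p = 0.019), Fosl1 (-0.85, adjusted p = 0.021) and Junb (-0.575, adjusted p = 0.0499), whose groups overlapped. Whether these factors bear on the MMP genes was not tested.

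Markers of other cells were read in the same libraries. The summed level of 10 fibroblast markers was 472 to 514 CPM in sh-NC and 1570 to 1730 CPM in sh-TonEBP, mainly through Col3a1, and that of 8 epithelial markers was 618 to 752 and 1210 to 1520 CPM, mainly through Krt8. Of the 7 fibroblast markers tested, 6 were called higher and none lower, beside 26.3% and 26.2% of all tested genes. The 6 include Dcn and Col1a1, which both passed the filter through sh-TonEBP alone. The median log2 fold change of 1.80 was that of Col1a1, with 13, 7 and 15 counts in sh-NC and 59, 36 and 27 in sh-TonEBP. Lum, a matrix proteoglycan, was 12.3-fold higher (adjusted p = 1.3e-05). Col3a1 and the PDGF receptor genes Pdgfrb (log2 fold change 0.68) and Pdgfra (0.41) were the others called higher. Col1a2 did not pass the test and had the other sign (-0.59, adjusted p = 0.11), while Thy1, Fap and Postn were under the filter. Col1a1, Col1a2 and Pdgfra were named after their values were seen. Of the epithelial markers Krt8 was called higher and Krt18 was not, and Epcam, Cdh1 and Krt14 were under the filter. These sums moved in the same direction as Mmp14, Timp2 and Mmp28, and their part in those results was not tested. The 8 neutrophil markers, for cells that store Mmp8 and Mmp9, summed to 2.37 to 3.32 CPM in sh-NC and 1.25 to 2.08 CPM in sh-TonEBP, with 7 of 8 under 1 CPM in every library and Elane and Mpo under the filter. In bulk RNA, fewer cells of a type and less RNA per cell cannot be told apart.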

How the data were processed

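The data analysed were raw read counts per gene, deposited by the authors in a single table, for 6 poly(A) RNA-seq libraries of BV2 cells, 3 sh-NC and 3 sh-TonEBP. Tools listed by the submitters were HISAT2 2.0.5, HTSeq 0.9.1, cutadapt 1.15 and DESeq 1.30.0, with the build GRCm39. Not given in the sources used here were their roles, the gene annotation, strandedness and the treatment of multi-mapped reads. The sh-TonEBP columns carry no gene name and were mapped by exclusion, as the series holds no other shRNA than the scrambled one.

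Symbols were found for 21795 of 21899 gene identifiers. Replicates were not duplicates of each other (chi-square per degree of freedom of 5.33 to 29.3 within groups). Genes were filtered with filterByExpr, which left 11943, and tested in edgeR 4.0.16 (R 4.3.3) with TMM factors and robust quasi-likelihood fits of 3 against 3 libraries, at a common biological coefficient of variation of 0.135. The standard error is the log2 fold change divided by the square root of F. The script was tested on simulated data. Ratios within a library were compared by exact permutation tests in scipy 1.17.1.

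The 10 genes and all lists were chosen with earlier results of these data known. The rule for naming took all 10, up to 4 genes of each other list with the smallest p, and the 3 genes most correlated with the extreme members. A gene named by this rule is left out of the text. Alternatives were DESeq2 1.42.0, other scalings and filters, a replicate block, removal of length and GC trends, and leaving out each library.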

Additional observations from a re-analysis of the deposited data

How the results depend on the processing

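Mmp10, Mmp13, Mmp19, Mmp14 and Timp2 kept their direction and call in all 13 alternatives, with log2 fold changes of -3.63 to -3.43, -1.23 to -0.78, -0.77 to -0.62, 0.71 to 1.03 and 0.79 to 1.07. So did Mmp1b and Mmp28 in 13. Mmp1a, which did not reach a mean of 1 CPM, kept its call in 12, but its log2 fold change ran from -4.51 without sh-TonEBP library 2 to -1.80 without sh-TonEBP library 1. The 3 calls in the lower direction were made under every alternative. The 4 in the higher direction became 2 with DESeq2, with length and GC trends removed, with library totals alone and with a mean of at least 1 CPM, and 2 to 4 when a library was left out, since Mmp9 and Timp1 stood at the threshold. Without sh-NC library 3, sh-TonEBP library 1 or sh-TonEBP library 3 the count was 2. The genes past the study's cutoffs went from 2 to 1 with the trends removed and lay between 2 and 4 when a library was left out, with 4 (Mmp14 and Timp2 added) without sh-TonEBP library 2. They were 3 with no filter, with Timp2 added. The count of 2 also hides changes, since Mmp13 gave way to Timp2 without sh-NC library 2 and to Mmp14 without sh-TonEBP library 3. Changes of sign were seen for Timp1 (-0.15 with the trends removed), Mmp23 (-0.14 with the trends removed), Mmp2 (0.16 without sh-NC library 1 and 0.28 without sh-TonEBP library 3, within -0.573 to 0.28 when a library was left out) and Mmp11 (0.01 without sh-NC library 3 and 0.042 without sh-TonEBP library 3, within -0.17 to 0.042). With the trends removed Mmp11 was called lower (-0.41, adjusted p = 0.031 in edgeR). The cause of these changes was not tested. Alternatives for Mmp1a, Mmp1b, Mmp11, Mmp23 and Mmp28 and the ratios to Mmp3 were chosen after seeing the data.

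Deviations of same-numbered libraries correlated at 0.18, 0.056 and -0.072, so the numbers were not taken to pair the samples. With a replicate block 6436 genes were called against 6270, and of the 10 genes 3 were called higher and 3 lower, since Mmp9 went to an adjusted p of 0.050. Not every library correlated best with its own number. At these depths Mmp2 had 2 to 14 counts per library and Timp3 at most 1.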
